A study of Mus musculus with 4 samples.

Results

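Peaks called only before the diet, here D0-only peaks, are stretches of open chromatin that were called in liver nuclei at day 0 and overlapped no peak called at day 5 by 1 bp or more. There were 15383 of them among 142799 peaks of D0, or 10.8%, and among 290524 peaks of both days. They were chosen from measured values, the deposited peak calls of the 2 days, so their absence at D5 and their strength are descriptions and not results. The other 127416 D0 peaks overlapped a D5 peak and are called shared peaks below. Counted the same way, 20280 of 147725 D5 peaks, or 13.7%, overlapped no D0 peak.

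The study followed dendritic cells and γδ T cells of the liver through cholestatic injury, and this experiment read RNA and open chromatin from the same nuclei (10x Multiome) before and early in the injury. Both groups were C57BL/6J mice with no transgene or deletion named, male and 6 to 12 weeks old by the study's methods. The D0 group received 0 days and the D5 group 5 days of 0.1% DDC (3,5-diethoxycarbonyl-1,4-dihydrocollidine) in the chow, a compound that injures bile ducts. From both, living liver cells were sorted as CD45+ CD64- CD11c+, a gate that holds dendritic cells and also NK cells and some T cells, and nuclei were extracted from them. Each day was 1 library, and how many mice went into it was not given in the sources used here, so no test between days is possible and every interval here covers counting error only. Peaks held 230603066 cut sites at D0 and 246268185 at D5, and the RNA layers 44496348 UMIs at D0 and 94374499 at D5. The 2 libraries shared 591 called barcodes, and all 16260 called D0 barcodes were found in the joint table with equal UMI counts. Nuclei were grouped by their RNA into classes named by marker genes, and 10659 nuclei were kept at D0 and 19904 at D5.

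In ATAC-seq a transposase cuts DNA where nucleosomes leave it accessible, and a peak marks a region where cuts pile up. Promoters of active genes are open in most cell types, whereas distal elements such as enhancers open in the lineages that use them. In a mixed sort, peaks are called on all nuclei together, so a region open in a rare lineage has to rise above the background of all others. NK cells kill infected or transformed cells with granzymes and perforin, plasmacytoid dendritic cells (pDC) produce type I interferon, and conventional dendritic cells of types 1 and 2 (cDC1, cDC2) present antigen.

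The sequences shown here are those upstream of genes whose start site lay under a D0-only peak, because these windows say which promoters were involved. Psme2 encodes a subunit of the proteasome activator PA28, Pfn1 the actin-binding protein profilin, Msl2 a ubiquitin ligase of the MSL complex and Stx12 an endosomal syntaxin, and their start sites lay under 4 of the 10 strongest D0-only peaks. Lrat, the enzyme that esterifies retinol in stellate cells, and Mcpt8, a basophil protease, come from the marker lists of cells that the gate should leave out. Each line gives the 250 bases before the start site from RefSeq (GRCm38.p6, the patch release of mm10), in the direction of the gene, and capitals mark matches, on either strand, to any of the 19 motifs searched. Those of AP-1, KLF/SP, GATA and the E-boxes are spelled out with their counts further on. The others were PU.1 (GAGGAAGT), C/EBP (TTGCNNAA), the heat shock element (GAANNTTC), NRF2 (TGACNNNGC), HNF4 (CAAAGTCCA), CRE (TGACGTCA), TCF/LEF (ACATCAAAG), RUNX with the letters TGTGGTT, the T-box motif of Eomes and T-bet with the letters GGTGTGA, the CCAAT box of the factor NF-Y with the letters CCAATNA, and, by name, NF-kB, CTCF, an ETS-IRF composite and the interferon-stimulated response element.
Psme2 promoter, chr14:55591022-55591271, minus strand: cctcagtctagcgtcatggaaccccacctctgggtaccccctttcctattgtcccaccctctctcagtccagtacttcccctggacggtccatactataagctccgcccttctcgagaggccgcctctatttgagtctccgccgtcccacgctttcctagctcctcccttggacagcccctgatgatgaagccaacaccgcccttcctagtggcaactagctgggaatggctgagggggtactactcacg
Pfn1 promoter, chr11:70654651-70654900, minus strand: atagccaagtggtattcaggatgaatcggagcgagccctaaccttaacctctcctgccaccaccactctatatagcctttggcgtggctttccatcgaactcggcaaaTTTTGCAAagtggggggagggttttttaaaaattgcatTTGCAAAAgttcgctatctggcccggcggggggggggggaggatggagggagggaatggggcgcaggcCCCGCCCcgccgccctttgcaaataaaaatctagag
Msl2 promoter, chr9:101074512-101074761, plus strand: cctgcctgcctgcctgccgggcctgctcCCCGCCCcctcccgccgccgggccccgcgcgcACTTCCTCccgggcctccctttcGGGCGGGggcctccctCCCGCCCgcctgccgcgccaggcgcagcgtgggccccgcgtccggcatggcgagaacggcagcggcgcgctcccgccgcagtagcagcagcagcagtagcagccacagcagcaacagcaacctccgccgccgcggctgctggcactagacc
Stx12 promoter, chr4:132884459-132884708, minus strand: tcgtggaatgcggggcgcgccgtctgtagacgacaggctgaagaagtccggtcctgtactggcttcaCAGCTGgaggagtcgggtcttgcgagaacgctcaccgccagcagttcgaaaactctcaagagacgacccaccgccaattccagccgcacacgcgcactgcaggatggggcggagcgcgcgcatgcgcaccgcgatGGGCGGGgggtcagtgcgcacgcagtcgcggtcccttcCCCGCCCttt
Lrat promoter, chr3:82903975-82904224, minus strand: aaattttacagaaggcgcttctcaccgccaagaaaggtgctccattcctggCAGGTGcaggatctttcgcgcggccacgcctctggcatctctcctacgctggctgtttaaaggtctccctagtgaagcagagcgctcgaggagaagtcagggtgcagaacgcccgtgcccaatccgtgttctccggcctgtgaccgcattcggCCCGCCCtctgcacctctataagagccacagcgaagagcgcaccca
Mcpt8 promoter, chr14:56085198-56085447, minus strand: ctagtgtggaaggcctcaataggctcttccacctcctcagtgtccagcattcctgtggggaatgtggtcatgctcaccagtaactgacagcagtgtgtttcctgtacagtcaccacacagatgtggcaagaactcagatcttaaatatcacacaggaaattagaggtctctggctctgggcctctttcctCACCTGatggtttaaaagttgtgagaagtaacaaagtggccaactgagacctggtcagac

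D0-only peaks were weak. They held a median of 178 cut sites over all barcodes (quartiles 137 and 266, range 22 to 10269), against 700 in shared peaks, and 1.88% of all cut sites in D0 peaks. Of the 10% of D0 peaks with fewest cut sites, 51.8% were D0-only, and this share fell in each further 10% of peaks to 0.259% among the strongest. Their width was close to that of shared peaks, with medians of 841 and 876 bp. On chromosomes 1 to 19 and X, 9.52% (chromosome 11) to 13.3% (chromosome X) of D0 peaks were D0-only, and on Y 6 of 36 were.

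**Figure D1:**
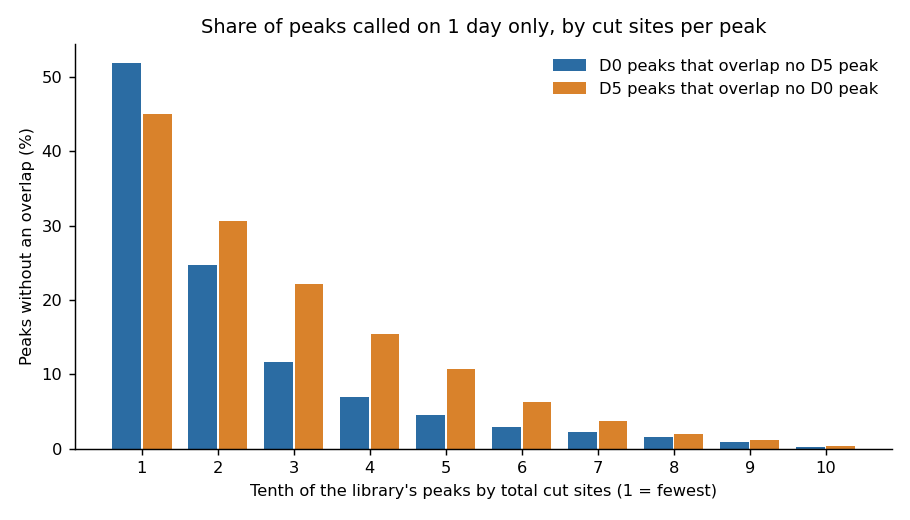
The share of peaks that overlap no peak of the other day is plotted in percent for bins that each hold 10% of the library's peaks, ordered by total cut sites, for D0 and D5. At D0 the bars fall from 51.8% in the weakest bin to 0.259% in the strongest, and at D5 from 45.0% to 0.352%.

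A call that is missing at D5 can lie close to one that was made. The gap from a D0-only peak to the nearest D5 peak had a median of 3021 bp (quartiles 814 and 8292), and 504 lay within 100 bp, 2469 (16.1%) within 500 bp and 12089 (78.6%) within 10 kb. Just inside the rule, peaks in Mthfd1l and over the start site of Epb41l1 lay directly beside a D5 peak with a gap of 0 bp and held 148 and 2005 cut sites. A peak 661869 bp from 4930559C10Rik had a gap of 1 bp and 395 cut sites. Just outside it, peaks over the start site of Airn and near Gm50012 overlapped a D5 peak by 1 bp and held 1162 and 1494 cut sites. A peak 111146 bp from Gm15334 overlapped by 2 bp and held 348. The cut sites of the peaks inside and outside the threshold overlapped. Cut sites of the D5 nuclei at these positions were not analysed here, since each library's table covers its own peaks.

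Few D0-only peaks lay at promoters. Of the 15383, 1054 (6.85%, exact binomial interval 6.46 to 7.26) lay within 1 kb of a gene's start site, against 15.1% of shared peaks, a difference of -8.22 percentage points, and 492 (3.20%) covered a start site, against 11.1%. The level depended on the start sites used: with the whole span of a gene's start sites the shares within 1 kb were 15.3% and 23.3%, and with start sites of genes of at least 100 UMIs 2.03% and 9.47%. Most, 8994 or 58.5%, lay 10 to 100 kb away, and 8.75% lay over 100 kb away, against 5.53% of shared peaks. The median distance was 19254 bp, against 13199 bp. Inside gene bodies lay 63.6%, close to the 63.3% of shared peaks.

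Within a narrow range of strength the difference at promoters was not found. Between the quartiles of the members' cut sites in kept nuclei (56 to 112), 7754 D0-only peaks were set beside the 17361 shared peaks of the same range. The shared peaks were still somewhat stronger there, with a median of 87 cut sites against 74. Of these peaks, 5.29% (4.80 to 5.81) and 4.41% lay within 1 kb of a start site, a difference of 0.875 points in the other direction, and 63.4% and 57.3% lay in gene bodies. Over 100 kb from a start site lay 9.69% of these D0-only and 10.9% of these shared peaks, also the other direction. Their median distances came close, at 22471 and 23072 bp. Among D5-only peaks 5.56% lay within 1 kb of a start site.

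The promoters under D0-only peaks held fewer CpG dinucleotides than those under shared peaks. RefSeq windows of 300 bases, running from 250 before to 50 after the start site, were read for 380 start sites under a D0-only peak and 14351 under a shared peak, out of 32851 in all. Median GC content was 55.0% and 60.7%, and median CpG count was 8 and 20. The KLF/SP motif GGGCGGG, the binding site of factors that act at many housekeeping promoters, stood on either strand in 26.6% (22.2 to 31.3) of D0-only windows, 45.9% of shared ones and 25.6% of all. The E-box CAGGTG, bound by E proteins such as the pDC factor E2-2, stood in 25% (20.7 to 29.7), 18.3% and 20.2%, and the E-box CAGCTG in 21.1% (17.1 to 25.5), 15.4% and 16.3%. The GATA motif AGATAA stood in 10.8% (7.85 to 14.4), 6.08% and 11.2%. The 332 windows under D5-only peaks are set beside them, with a median of 5 CpG, GGGCGGG in 18.1%, CAGGTG in 23.5%, CAGCTG in 19.3%, AGATAA in 10.8% and TGANTCA in 11.1%.

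In the same range of strength the differences in CpG and GGGCGGG turned to the other direction, and those of the E-boxes kept theirs. Between the quartiles of cut sites, 175 D0-only and 325 shared windows had a median of 7 and 6 CpG, and 25.1% (18.9 to 32.2) and 20.3% held GGGCGGG. The first E-box, CAGGTG, stood in 29.1% (22.5 to 36.5) and 20.9% (16.6 to 25.8), and CAGCTG in 22.3% (16.4 to 29.2) and 16.0% (12.2 to 20.4). For AGATAA the shares came close, at 10.9% and 9.85%. The AP-1 motif TGANTCA stood in 4.57% (1.99 to 8.81) and 11.4% (8.14 to 15.3), and the interferon-stimulated response element in 1.71% (0.355 to 4.93) and 7.38% (4.79 to 10.8). Over all windows these last 2 motifs went the other way, with 6.32% of D0-only and 5.37% of shared windows for AP-1 and 5.00% and 3.25% for the response element, beside 7.81% and 3.44% of all windows. Among the 76 windows under the strongest 10% of D0-only peaks, CAGGTG stood in 14.5% (7.45 to 24.4), against 18.3% of all shared windows. CAGCTG stood in 22.4% (13.6 to 33.4) of them, against 15.4%. Between the quartiles the intervals of both sets overlapped for each of these motifs, which were picked from the 19 after their values were seen. The E-boxes were searched as separate motifs, and a match is one of letters only. Of the windows printed above, that of Psme2 held none of the 19 motifs, Pfn1 held 2 C/EBP matches beside 1 of GGGCGGG, Msl2 held GGGCGGG 3 times (in either direction) beside a PU.1 match, and Lrat and Mcpt8 held 1 CAGGTG each. The C/EBP and PU.1 motifs stood in 10.8% and 3.20% of all windows.

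The cut sites of D0-only peaks came from NK and ILC1-like nuclei more often than those of shared peaks did. Class shares are over kept nuclei, which held 41.9% of the cut sites of D0-only peaks and 44.9% of those of shared peaks. NK and ILC1-like nuclei, in which 9 of 11 NK markers and 5 T cell markers were raised, held 15.8% (15.71 to 15.86) of the cut sites of D0-only peaks in kept nuclei, against 11.2% for shared peaks, a ratio of 1.41. This share depended on the filter for doublets and was 39.4% when none were removed, where a second cluster of 1490 D0 nuclei with high UMI counts took the same name. T cell-like nuclei, in which 11 of 12 T cell markers and 8 NK markers were raised, held 3.00% (2.960 to 3.030) against 2.47%, a ratio of 1.21. With D0 nuclei clustered alone no cluster took the T cell-like name. The pDC-like nuclei, the largest class of the D0 library, held 25.5% (25.40 to 25.58) against 22.9%, a ratio of 1.11. Each of these 3 ratios was above 1 on all 20 chromosomes counted. The ranges were 1.31 to 1.53 for NK and ILC1-like, 1.04 to 1.31 for T cell-like and 1.01 to 1.21 for pDC-like nuclei. The chromosomes were read in the same nuclei of 1 library and are not replicates.

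Nuclei of the cDC2-like, preDC-like, Ccr7 DC-like and monocyte-related classes held less. The share of cDC2-like nuclei was 5.80% (5.756 to 5.853) against 8.71%, a ratio of 0.666 that ranged from 0.587 to 0.703 over chromosomes. Ratios were 0.621 for nonclassical monocyte-like, 0.732 for macrophage-like, 0.824 for preDC-like and 0.837 for mature Ccr7 DC-like nuclei, and none of these was above 1 on any chromosome. In cDC1-like nuclei, 16.4% against 16.7%, the ratio of 0.982 stood above 1 on 6 of 20 chromosomes and so had no common direction. The cDC1-like share itself was 6.28% with no doublets removed and 32.3% at a coarser clustering, and the T cell-like, macrophage-like and preDC-like shares of 3.00%, 4.49% and 1.45% were 1.58%, 2.39% and 0.787% with no doublets removed. The cDC2-like class is a single cluster with 5 of 12 cDC2 markers raised, and the unnamed clusters 6 and 11 had 3 and 2 of them raised. With D0 nuclei clustered alone, clusters of 1447, 664 and 383 nuclei took this name, and the ratio was 0.688. The macrophage-like class had 8 of 11 macrophage markers raised, although the gate was CD64-.

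**Figure D2:**
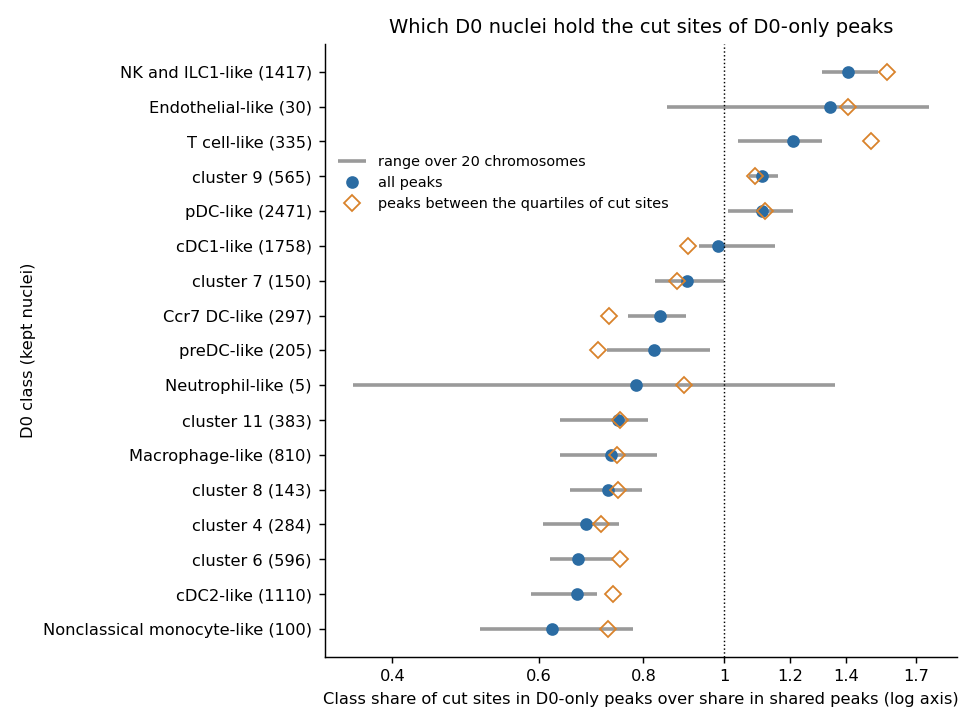
For each class or unnamed cluster of D0 nuclei (kept nuclei in brackets), the share of cut sites in D0-only peaks over the share in shared peaks is plotted on a log axis, with circles for all peaks, diamonds for peaks between the quartiles of cut sites and bars for the range over 20 chromosomes. NK and ILC1-like nuclei lie at 1.41 and 1.57, and cDC2-like nuclei at 0.666 and 0.736.

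The ratios stayed on the same side of 1 in a narrower range of strength, in which shared peaks were still the stronger ones. Between the quartiles of cut sites the ratio was 1.57 for NK and ILC1-like, 1.5 for T cell-like, 1.12 for pDC-like, 0.904 for cDC1-like and 0.736 for cDC2-like nuclei. Away from promoters the NK and ILC1-like ratio was higher, at 1.68 for peaks 1 to 10 kb from a start site and 1.64 beyond 100 kb, than the 1.23 within 1 kb. By the gap to the nearest D5 peak it ran from 1.43 under 500 bp to 1.28 at 10 kb or more, while the cDC2-like ratio went from 0.718 to 0.513 and the cDC1-like ratio from 0.913 to 1.16.

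The make-up of the 2 libraries also differed. NK and ILC1-like nuclei made up 13.3% of the kept D0 nuclei but 5.45% of the kept D5 nuclei. For the pDC-like class these shares were 23.2% and 11%, and for the T cell-like class 3.14% and 2.17%, so among the 9 named classes of at least 50 nuclei all 3 with a ratio above 1 had a smaller share at D5. Of the 6 with a ratio below 1, 3 had a larger share at D5: cDC2-like (10.4% and 15.9%), preDC-like (1.92% and 7.35%) and Ccr7 DC-like nuclei (2.79% and 4.97%). The other 3 had a slightly smaller one. Endothelial-like (30 nuclei at D0) and neutrophil-like nuclei (5) were left out of these counts and had ratios of 1.34 and 0.785. Fewer nuclei of a class at D5 and less signal per nucleus cannot be told apart from the calls, and the part of composition in the ratios was not tested. Among the unnamed clusters, cluster 9 (565 nuclei at D0, 5.30% against 0.718% at D5) held 15.6% of the cut sites of D0-only peaks, a ratio of 1.11. Clusters 7 (1.41% and 0.573% of kept nuclei) and 11 (3.59% and 2.48%) also had smaller shares at D5, but ratios below 1, at 0.903 and 0.745. Clusters 4 (2.66% and 11.9%), 6 (5.59% and 10.7%) and 8 (1.34% and 1.42%) had larger shares at D5 and ratios of 0.683, 0.668 and 0.725. The nuclei of cluster 9 had a median of 19606 cut sites, against 10028 in pDC-like nuclei, and raised markers of both NK cells and cDC1, and whether they were doublets that the filter left was not tested.

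Whether more D0-only peaks than other D0 peaks were selective for a class depended on the threshold. A peak was called selective where its level in a class, in peak CPM (cut sites scaled to 1000000 peak cut sites of the class), was at least 2-fold that in all other kept nuclei, with at least 20 cut sites in the class. For at least 1 of 9 named classes this held for 8244 D0-only peaks (53.6%), beside 55.9% of all D0 peaks. At 4-fold the shares were 28.0% and 21.2%, with a minimum of 10 cut sites 70.2% and 63.8%, and with no minimum 87.1% and 71.5%, all higher for D0-only peaks. Between the quartiles of cut sites they were 58.8% of D0-only and 54.3% of shared peaks at 2-fold and 20 cut sites, and 87.8% and 87.3% with no minimum. At 2-fold and 20 cut sites the classes differed: 2666 (17.3%) were selective for NK and ILC1-like nuclei beside 11.7% of all D0 peaks, and 3101 (20.2%) for pDC-like nuclei beside 17.2%. For cDC1-like nuclei the count was 2248 (14.6%) beside 15%, near the background, but it was above it at 4-fold (5.55% beside 3.51%) and with a minimum of 10 cut sites (18.7% beside 15.8%). Lower than the background were T cell-like nuclei with 390 (2.54%) beside 5.49%, macrophage-like with 193 (1.25%) beside 6.23%, cDC2-like with 105 (0.683%) beside 5.71%, Ccr7 DC-like with 41 (0.267%) beside 3.57%, preDC-like with 25 (0.163%) beside 3.05% and nonclassical monocyte-like with 7 (0.0455%) beside 1.19%.

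The minimum of 20 cut sites is hard to reach for a weak peak in a small class. Between the quartiles of cut sites, 15.9% of D0-only and 7.79% of shared peaks were NK and ILC1-selective, 22.7% and 17.8% were pDC-selective, 19.6% and 23.9% were cDC1-selective and 0.297% and 2.24% were cDC2-selective. For T cell-like nuclei these shares, 0.103% and 0.225%, rest on 8 and 39 peaks. With a minimum of 10 cut sites in the class, 6.79% of D0-only peaks were T cell-selective, beside 7.94% of all D0 peaks, and with no minimum the direction turned, to 19.4% beside 10.9%. With no minimum it also turned for Ccr7 DC-like (13.5% beside 11.3%) and preDC-like nuclei (14.5% beside 14.1%), and nonclassical monocyte-like nuclei came to 10.4% beside 11.8%. Between the quartiles, however, the shares with no minimum were 14.0% of D0-only against 19.5% of shared peaks for Ccr7 DC-like and 13.9% against 22.0% for preDC-like nuclei, and 16.6% against 9.28% for T cell-like nuclei. Most selective peaks, 7718, were selective for 1 class and 520 for 2. The latter were chiefly shared between NK and ILC1-like and T cell-like nuclei, with 348 peaks. These were 13.1% of the NK and ILC1-selective and 89.2% of the T cell-selective ones. The same overlaps were not counted over all D0 peaks, so whether they are particular to D0-only peaks was not tested.

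**Figure D3:**
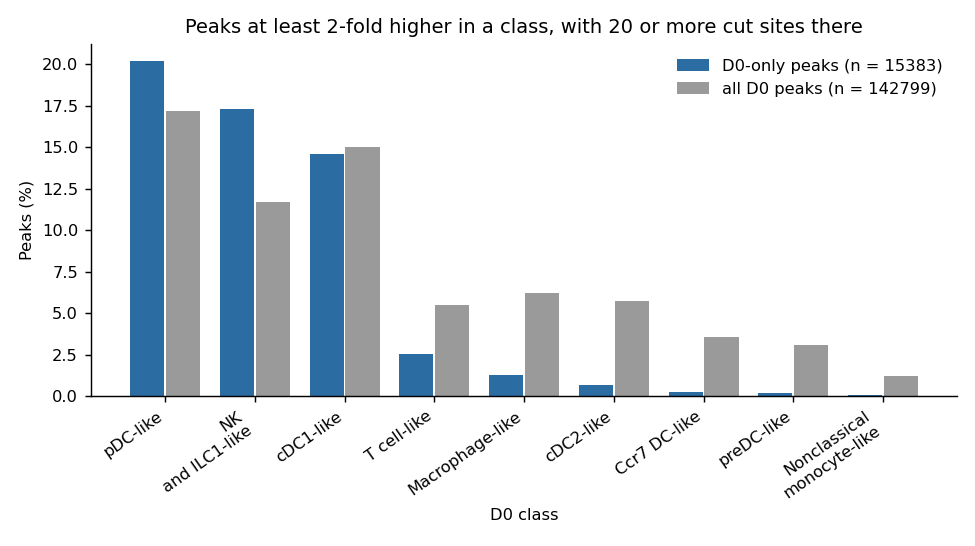
Bars give the percent of D0-only peaks and of all D0 peaks that were at least 2-fold higher in a class than in the other kept nuclei, with 20 or more cut sites there. NK and ILC1-like (17.3% and 11.7%) and pDC-like nuclei (20.2% and 17.2%) stand above the background, and cDC2-like nuclei (0.683% and 5.71%) below it.

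The most selective peaks of each class were picked for their ratios, which are a description of the extremes, while 7139 D0-only peaks (46.4%) were selective for no class. Levels here are in peak CPM, and ratios have exact binomial intervals on fragments, with 2 cut sites taken as 1 fragment. In pDC-like nuclei, a peak 170750 bp from the start site of Adamts20, chr15:94232631-94233507, held 76 of its 78 cut sites in kept nuclei, a ratio of 128 (21.6 to 5169). A peak in Sema5a, a semaphorin gene, held 78 of 82 in kept nuclei (ratio 65.5, 16.9 to 560), and all other named classes were at 0 there. A peak 103813 bp from A730004F24Rik held 53 of 55 in kept nuclei (ratio 89.0, 14.9 to 3711). Over all barcodes these peaks held 163, 183 and 108 cut sites.

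In NK and ILC1-like nuclei, the leading peak lay in the Lrat gene, chr3:82896273-82897182, 87190 bp from the nearest D5 peak. Its level was 6.35 peak CPM in NK and ILC1-like and 2.34 in T cell-like nuclei, 0.231 in cDC1-like nuclei and 0 in the other 6 named classes, a ratio of 21.6 (11 to 41.7) over the rest. Of the 1417 nuclei of the class, 36 had a cut site in it. The next peaks lay 101407 bp from Rbms3 (ratio 18.1, 8.29 to 42.6), the gene of an RNA-binding protein, and in Arnt2 (ratio 18, 8.10 to 38.9), a bHLH-PAS transcription factor. Of the cut sites of these 3 peaks in kept nuclei, 73.3%, 69.7% and 69.6% lay in the class.

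In T cell-like nuclei the leading peak lay in Celsr1, an adhesion receptor gene, at 17.2 peak CPM against 2.74 in NK and ILC1-like nuclei and at most 0.799 in any other named class (ratio 24.1, 13.5 to 42.1). Peaks in Igsf23 and Ttc16 followed with ratios of 15 (9.16 to 24.4) and 9.90 (6.32 to 15.4), and in both NK and ILC1-like nuclei came second, at 4.55 and 6.43 peak CPM. In cDC1-like nuclei the 3 leading peaks lay 71469 bp from Gm45650, in Dph6 and 110108 bp from Plxna2. They held 49, 55 and 49 cut sites there, with ratios of 18.7, 16.1 and 15.2. In macrophage-like nuclei the leading peak, 51914 bp from 9130015L21Rik, stood at 8.38 peak CPM (ratio 102, 36.1 to 408) and lay 656 bp from a D5 peak. The next, a peak 51847 bp from Igf1, the gene of an insulin-like growth factor made by tissue macrophages, stood at 7.12 peak CPM against 0.226 in the rest (ratio 31.4, 15 to 73.0), and it lay 23414 bp from a D5 peak.

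In cDC2-like nuclei the highest ratio was 6.98 (3.91 to 12.4), for a peak in Dapk1, a death-associated kinase gene, at 4.80 peak CPM. The nuclei it was set against include the unnamed clusters 6 and 11, in which 3 and 2 of 12 cDC2 markers were raised. A peak in Ppard, a lipid-sensing nuclear receptor gene, reached 3.35 (2.13 to 5.07) and also stood at 5.22 in macrophage-like nuclei. In Ccr7 DC-like nuclei a peak 100137 bp from Cdc42ep3 reached 25.2 peak CPM (ratio 16.9, 11 to 26.4), with 3.79 in cDC2-like and 3.64 in macrophage-like nuclei. In preDC-like nuclei the peaks 129145 bp from Sall1 and 7236 bp from Gadd45b stood at 26.5 and 22.6 peak CPM. However, pDC-like nuclei had 20.4 and 21.1 at the same peaks, so these peaks marked both classes.

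**Figure D4:**
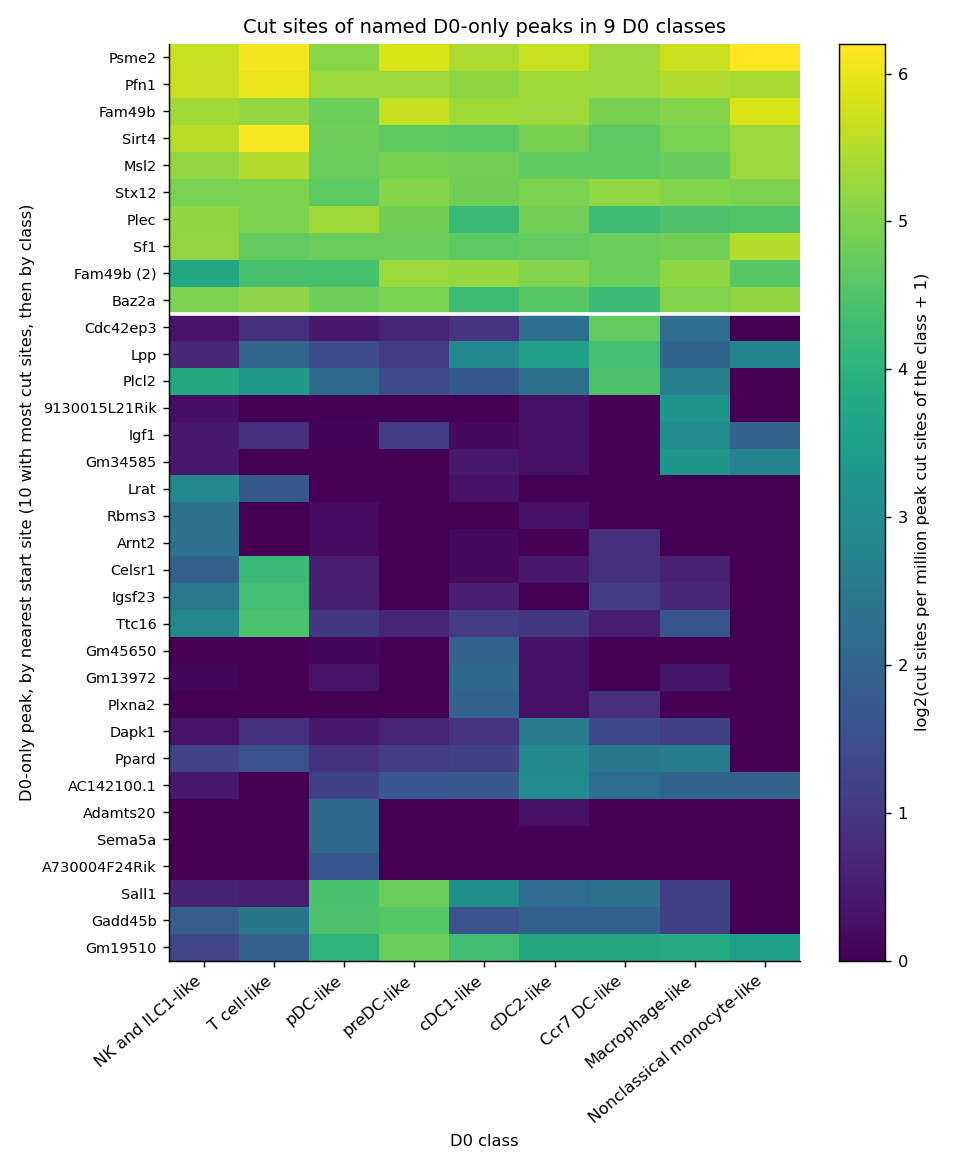
Named D0-only peaks are listed downward by their nearest start site, first the 10 with most cut sites and then up to 3 per class, columns are 9 D0 classes, and colour gives log2(peak CPM + 1). The first 10 reach at least 12.5 peak CPM in every class, whereas the pDC-selective peaks of Adamts20, Sema5a and A730004F24Rik reach 3.20, 3.28 and 2.23 peak CPM there and at most 0.223 in any other class.

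The strongest D0-only peaks were of another kind. Of the 154 peaks that made up the top 1% (813 to 4661 cut sites in kept nuclei), 97 (63.0%) lay within 1 kb of a start site, beside 42.8% of shared peaks at or above that level. They were narrower, with a median width of 661.5 bp against 885.0, and 105 (68.2%) had a D5 peak within 500 bp. Only 13 lay 2 kb or more from a D5 peak, 7 of them over a start site. These 154 peaks were 0.522% of all D0 peaks of that strength.

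The peak with most cut sites, 10269, was the Psme2 promoter, chr14:55590947-55591379, which covered the whole upstream window printed above and lay 3952 bp from the nearest D5 peak. Its level was high in every class, from 33.4 peak CPM in pDC-like to 72.5 in nonclassical monocyte-like nuclei. Psme2 RNA was 229 CPM at D0 (223 to 235) and 254 at D5 (250 to 259), a log2 ratio of 0.152, so its RNA was present on both days. At Fam49b (Cyrib in RefSeq), a regulator of actin through Rac1, lay 2 D0-only peaks, chr15:64059905-64060642 and chr15:64059076-64059684, with 8176 and 6172 cut sites. The first covered the start site, and the second lay 763 bp from it inside the gene. Both lay over 6 kb from a D5 peak (6681 and 6432 bp). The first stood at 38.9 peak CPM in NK and ILC1-like nuclei and the second at 12.5, while cDC1-like nuclei had 39.1 and 36.2. The Stx12 promoter, chr4:132884004-132884712, held 6633 cut sites, lay 4873 bp from a D5 peak and ranged from 23.7 to 35.6 peak CPM over the 9 classes, and Stx12 RNA was 107 CPM at D0 and 115 at D5.

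The other peaks of the top 10 had a D5 peak nearby. Those of Pfn1 (9571 cut sites), Sirt4 (7181), Msl2 (6745), Plec (6630) and Sf1 (6401) lay 249, 147, 130, 99 and 240 bp from one, and that of Baz2a (5986) lay 915 bp from one. RNA of these genes was found on both days: the log2 ratio of D5 over D0 was 0.543 for Pfn1, -0.322 for Sirt4 (a mitochondrial sirtuin, 91 and 182 UMIs), -0.273 for Msl2, 0.249 for Plec (a cytoskeletal linker), -0.260 for Sf1 (a splicing factor) and -0.461 for Baz2a (a chromatin remodeller subunit). None of these 6 ratios reached 2-fold.

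Most genes near D0-only peaks had 1. Of 32272 genes with a position, 1708 (5.29%) had a D0-only peak within 2 kb of a start site and 5635 (17.5%) within 10 kb. D0-only peaks were nearest to 9147 genes, 62.4% of which were nearest to exactly 1, and 13 genes were nearest to 10 or more. These 13 genes were chosen after their values were seen. Setbp1 led with 18 beside 67 shared peaks, and Firre, a long noncoding RNA gene on the X chromosome, was nearest to 11 beside 10 shared. The class that led in the D0-only peaks was then read in the shared peaks of the same gene. At Setbp1 pDC-like nuclei held 22.0% of the cut sites of D0-only and 28.0% of those of shared peaks, and at Cd226, an activating receptor gene, NK and ILC1-like nuclei held 27.3% and 26.9%. At Firre the D0-only peaks drew 47.7% of their cut sites from NK and ILC1-like nuclei, against 23.8% for its shared peaks. At Atp10a, a phospholipid flippase gene, these values were 39.4% and 17.6%. At Nrp1, a semaphorin receptor gene, pDC-like nuclei led with 34.4% against 24.2%.

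Lineage and response genes were compared by lists, beside the 5.29% and 17.5% of all genes. Of the 12664 genes with at least 100 UMIs over both days, 675 had a D0-only peak within 2 kb and 2783 within 10 kb. Of 11 NK and ILC1 markers, 3 had a D0-only peak within 2 kb (Gzmb, Klra4, Ncr1) and 4 within 10 kb. Of 12 T cell markers, 1 (Cd3e) and 4 did, of 11 pDC markers 1 (Pacsin1) and 3, of 10 cDC1 markers 0 and 1, and of 12 cDC2 markers 0 and 0. Of 21 immediate early genes 2 and 8 did, of 15 heat shock genes 1 (Bag3) and 6, of 16 interferon-stimulated genes 1 (Rtp4) and 7, of 18 dendritic cell transcription factors 1 (Cebpa) and 5, and of 11 ligands that the study followed 0 and 2. Of 7 nonclassical monocyte markers 2 (Eno3, Nr4a1) and 2 did, of 11 macrophage markers 0 and 1 and of 11 Ccr7 DC markers 0 and 1. The lists are small, and no list was compared with another. In the lists of cells that the gate should leave out, 1 of 9 endothelial (Oit3), 1 of 5 stellate (Lrat), 2 of 5 basophil and mast cell (Cpa3, Mcpt8), 2 of 6 classical monocyte (Ccr2, F13a1), 0 of 7 neutrophil, 0 of 8 hepatocyte, 0 of 5 cholangiocyte, 0 of 8 B cell, 1 of 5 plasma cell (Jchain) and 1 of 5 erythroid genes (Hba-a2) had one within 2 kb.

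The peaks at these marker genes did not always follow the lineage of the list. The peak 502 bp from Pacsin1, a pDC adaptor gene, stood at 29.6 peak CPM in pDC-like nuclei, 20.4 in preDC-like nuclei and at most 4.72 elsewhere. The peak 701 bp from Cd3e, a subunit of the T cell receptor complex, stood at 11.3 in T cell-like and 2.83 in NK and ILC1-like nuclei. By contrast, the peak 457 bp from Klra4, a Ly49 receptor gene of NK cells, stood at 0.343 in NK and ILC1-like nuclei (64 cut sites in all kept nuclei) and was highest, at 1.27, in cDC1-like nuclei. The order of classes at this peak rests on few cut sites, and reads of near-identical Ly49 genes may have been split between copies. The Mcpt8 and Lrat promoters printed above stood at 5.06 and 2.40 in NK and ILC1-like, 5.08 and 3.90 in T cell-like and at most 0.633 and 1.10 in any other named class. RNA of both genes was at 1 or 2 UMIs on either day.

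Other named peaks near genes were open in several classes. The peak 931 bp from Ccr2, a monocyte chemokine receptor, stood at 6.95 in NK and ILC1-like, 3.12 in T cell-like and 2.01 in cDC2-like nuclei. The peak 406 bp from Crim1, a gene that earlier results of these data had given as lower at D5, stood at 20.3 in NK and ILC1-like and 12.5 in T cell-like nuclei and at most 5.22 in the rest. The peak 859 bp from Nr4a1, an early response nuclear receptor, ranged from 3.79 to 12.1, that 512 bp from Bag3, a co-chaperone, from 5.40 to 20.3, and that 849 bp from Cebpa, a myeloid transcription factor, from 0.60 in NK and ILC1-like to 14.3 in cDC2-like nuclei.

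RNA was not used in choosing the peaks, and it bears on the genes beside them. Of the 1708 genes with a D0-only peak within 2 kb, 675 had at least 100 UMIs over both days. Their median log2 ratio of D5 over D0, in CPM over kept nuclei, was -0.399, beside -0.303 for all 12664 genes tested, and 120 (17.8%) were lower at D5 by at least 2-fold beside 9.78%, while 6 (0.889%) were higher beside 0.955%. With TMM factors the median of all genes shifted by 0.455 to 0.152 and that of the 675 to 0.0555. On that scale 7.26% of the 675 were lower by at least 2-fold beside 3.77% of all genes, and 4.30% higher beside 4.79%. Genes with a D5-only peak within 2 kb had a median of -0.313 in CPM, and genes with a shared and no D0-only peak one of -0.285. Lower at D5 by at least 2-fold in CPM were 154 (12.3%) of the former and 8.58% of the latter. The 81 genes with a D0-only and no shared peak had a median of -0.664, and 25 (30.9%) of them were lower.

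**Figure D5:**
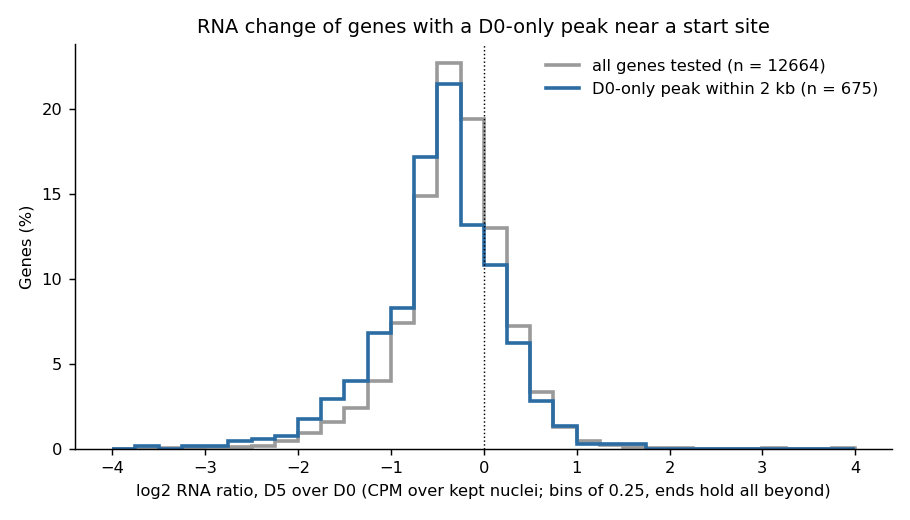
The percent of genes in bins of 0.25 is plotted against the log2 RNA ratio of D5 over D0 in CPM over kept nuclei, for all 12664 genes tested and for the 675 with a D0-only peak within 2 kb. Both curves peak below 0, with medians of -0.303 and -0.399, and the second has more genes at -1 and below (17.8% and 9.78%).

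Within each of the 9 named classes of at least 50 nuclei both medians lay nearer to 0 than the pooled ones. The median of genes with a D0-only peak within 2 kb was -0.242 beside -0.154 for all genes in NK and ILC1-like nuclei, -0.126 beside -0.105 in pDC-like, -0.256 beside -0.192 in cDC1-like and -0.156 beside -0.0872 in cDC2-like nuclei. In T cell-like nuclei, with -0.301 beside -0.137, and nonclassical monocyte-like nuclei, with -0.374 beside -0.108 over 51 genes, the gap between the medians was wider than the pooled one, and in the other 7 classes it was narrower. The median lay below that of all genes in each of the 9 classes, each of which compares 1 library with 1 library. Lower at D5 by at least 2-fold were 3.36% beside 1.73% of all genes in NK and ILC1-like and 1.73% beside 1.09% in pDC-like nuclei. In cDC1-like nuclei these shares were 5.66% beside 3.56%, and in cDC2-like nuclei 3.25% beside 3.11%. T cell-like nuclei, with 0% beside 1.03%, were the only named class where the share was below that of all genes.

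Some genes differed between the pooled values and those within a class, and others did not. The lowest pooled ratios among genes with at least 200 UMIs were those of Iigp1 (-2.53), an interferon-inducible GTPase, Klra4 (-2.32), Dtx1 (-2.27), a Notch pathway regulator, Kcnj8 (-2.19), a potassium channel subunit, and Xlr (-2.10). In NK and ILC1-like nuclei Klra4 fell from 37.0 to 17.8 CPM (71 and 38 UMIs), Dtx1 from 49.0 to 15.9 and Kcnj8 from 58.4 to 29.9, log2 ratios of -1.06, -1.63 and -0.966. In pDC-like nuclei Iigp1 had a log2 ratio of -0.953 (112 and 58 UMIs). In macrophage-like nuclei Iigp1 was at 54.6 CPM at D0 and 1.61 at D5 (90 and 7 UMIs), too few UMIs for a ratio by the minimum used. The remaining named classes held at most 19 UMIs of Iigp1 on either day. In cDC1-like nuclei Xlr fell from 49.9 to 9.58 CPM (214 and 103 UMIs), a log2 ratio of -2.38, as large as its pooled one. Xlr also stood on the list of genes that earlier results of these data had given as lower at D5. Klra4 and Xlr belong to families of near-identical genes, so reads may have been split between copies. Gzmb, a granzyme, and Ncr1, the NKp46 receptor, had pooled ratios of -1.11 and -1.61, yet in NK and ILC1-like nuclei they had -0.134 and -0.318, beside -0.154 for the median of all genes there. In pDC-like nuclei, which are not known to make NKp46, Ncr1 RNA was also found, at 25.4 CPM at D0 and 8.44 at D5, and the part of RNA from other cells in the values within a class was not tested. Pacsin1 likewise had a pooled ratio of -0.874 and 0.285 in pDC-like nuclei, and Cd3e -0.914 and -0.0985 in T cell-like nuclei.

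Bag3 and Crim1 also had negative ratios within classes. Bag3 RNA had a pooled log2 ratio of -1.25, with -1.46 in macrophage-like, -1.46 in cDC1-like, -1.14 in cDC2-like and -1.29 in pDC-like nuclei. Crim1, whose direction the choice of its list had fixed, had -1.68, with -0.654 in NK and ILC1-like nuclei, where it was at 197 and 125 CPM. In cDC1-like nuclei Crim1 was at 32.2 and 6.05 CPM, a log2 ratio of -2.41, but the NK receptor gene Ncr1 also had -1.80 there, and the part of RNA from other cells in these values was not tested. The highest ratios were those of S100a4 (1.60), a calcium-binding protein gene, Dkkl1 (1.59), Ms4a6d (1.39), Apod (1.25), a lipid carrier gene, and Hacd1 (1.18), a fatty acid elongation enzyme. S100a4 was higher at D5 in all 9 named classes, with log2 ratios from 0.833 to 1.94. Apod was highest in preDC-like nuclei, with 51.1 CPM at D0 and 43.8 at D5 (19 and 175 UMIs), and so did not rise within that class, whose share of kept nuclei was larger at D5.

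Genes near class-selective D0-only peaks were also read for their RNA in that class. Of 640 tested genes within 10 kb of an NK and ILC1-selective peak, 175 (27.3%) had RNA at least 2-fold higher in NK and ILC1-like nuclei than in the other kept nuclei, beside 9.13% of all 10785 genes tested. For pDC-like nuclei these shares were 30.5% (117 of 383) beside 10.3%, for T cell-like 31.7% (65 of 205) beside 9.30%, for cDC1-like 12.9% (41 of 318) beside 4.50%, for macrophage-like 30% (12 of 40) beside 4.83% and for cDC2-like 19.4% (6 of 31) beside 3.39%. The classes were made from this RNA, the same nuclei gave both readouts and the peaks were kept for being high in the class, so these shares are a description. Genes near class-selective shared peaks were not counted. Between days the median ratio of these genes in their own class was -0.309 in NK and ILC1-like nuclei beside -0.154 for all genes, -0.360 beside -0.137 in T cell-like, -0.338 beside -0.189 in macrophage-like, -0.322 beside -0.192 in cDC1-like, -0.144 beside -0.0872 in cDC2-like and -0.130 beside -0.105 in pDC-like nuclei. Lower at D5 by at least 2-fold were 21 (4.33%) in NK and ILC1-like nuclei beside 1.73% of all genes, 13 (4.61%) beside 3.56% in cDC1-like, 4 (11.1%) beside 3.77% in macrophage-like, 2 (7.69%) beside 3.11% in cDC2-like, 4 (1.26%) beside 1.09% in pDC-like and 1 (0.855%) beside 1.03% in T cell-like nuclei.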

How the data were processed

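Per the labels and the submitters' processing notes, the authors processed the Multiome libraries with Cell Ranger ARC 2.0.2 on mm10. The deposited values are unnormalized counts: UMIs per gene and cut sites per peak, with peaks called per library. The header of the RNA tables names Cell Ranger 6.0.2. Since 70.4% (D0) and 75.1% (D5) of the nonzero peak values were 2, a fragment was taken as 2 cut sites. Intervals cover counting error only.

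The members and gene lists were chosen with earlier results of these data known. Peaks were intersected by coordinates. Start sites were both ends of the span the feature table gives for a gene (44820 positions of 32272 genes), not the spans as planned, since 2221 exceed 10 kb. Of 25329 genes matched to RefSeq by symbol, 24888 (98.3%) lay in or within 1 kb of the reference gene. No genome sequence was used here, so motifs were read in promoter windows only and exons were not separated from introns.

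Barcodes with 1000 UMIs or more, of which no more than 10% were mitochondrial, were used, and doublets (Scrublet score above 0.2; 25.3% of each day) were removed. Both days were clustered together with scanpy 1.11.5 (2000 variable genes, 30 components, 15 neighbours, Leiden resolution 1.0). Naming a cluster took 3 or more class markers raised 2-fold and no second class close behind, and 6 of 21 stayed unnamed. D0 nuclei were joined to cut sites by barcode. Peaks were named by rule: the 10 with most cut sites, the 3 highest ratios per class of at least 50 nuclei among those with at least 40 cut sites there (ranked with fewer than 3 cut sites in all other nuclei taken as 3), the 3 nearest either side of the threshold, and the strongest within 1 kb of a start site of each list. RNA genes were the 5 highest and 5 lowest ratios with at least 200 UMIs and a D0-only peak within 2 kb. RNA was scaled to CPM, or by TMM of edgeR 4.0.16. With 1 library per day no test was run. Scripts were checked on simulated data. The count for the preDC marker list is not reported here.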

Additional observations from a re-analysis of the deposited data

Results flagged for a closer look

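The class comparisons above rest on kept nuclei, which held 41.9% of the cut sites of D0-only peaks and 44.9% of those of shared peaks. Called barcodes removed by the filters lie outside them, as do barcodes that were not called as nuclei. The uncalled barcodes held 9.99% of the cut sites of D0-only peaks, against 6.59% for shared peaks, and there is no control sample for this share. Between the quartiles of cut sites the values were 11.4% and 9.81%, and in the strongest 1% of D0-only peaks 6.86%. What set them was not tested.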

How the results depend on the processing

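With at least 200 cut sites per peak, 6267 D0-only peaks were left, while the other rules for overlap kept the count within 1.5 times. The share within 1 kb of a start site was 5.28% from the middle of the peak, 2.03% for expressed genes only, 5.85% without members near a D5 peak, 15.3% with whole start-site spans and 5.17% with RefSeq start sites. Its difference from shared peaks was -7.35 points with RefSeq and turned to 0.875 between the quartiles of cut sites, where shared peaks were still somewhat stronger. The whole spans were the definition first planned.

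Shares of cut sites in NK and ILC1-like, cDC2-like and pDC-like nuclei were 39.4, 4.26 and 20.8% with no doublet removal, 16.7, 6.27 and 22.9% at Leiden resolution 0.5 and 19.4, 8.05 and 24.1% with nuclei of at least 500 UMIs. The cDC1-like share of 16.4% moved to 6.28% with no doublet removal and to 32.3% at resolution 0.5, and with no doublet removal the T cell-like, macrophage-like and preDC-like shares were 1.58, 2.39 and 0.787% in place of 3.00, 4.49 and 1.45%. With at least 500 UMIs the nonclassical monocyte-like share was 0.702% in place of 0.417%. Without the strongest 1% of members cDC2-like and pDC-like nuclei held 5.64 and 25.7%. The ratios of NK and ILC1-like, cDC2-like and pDC-like nuclei to shared peaks were 1.57, 0.736 and 1.12 between the quartiles of cut sites, 1.65, 0.632 and 1.05 beyond 1 kb of a start site, and 1.44, 0.679 and 1.13 without cluster 9 (chosen after seeing the data). With D0 clustered alone cDC2-like nuclei had 0.688 and pDC-like 1.12, counting nuclei in place of cut sites NK and ILC1-like had 1.37 and pDC-like 1.08, and without members near a D5 peak (chosen after seeing the data, as were both ends of the spans and RefSeq) cDC2-like had 0.644. Where a ratio was computed, none of these 3 classes crossed 1. The ratio of cDC1-like nuclei did, to 1.03 with D0 alone and 1.01 without members near a D5 peak. Ratios were not computed with no doublet removal, at resolution 0.5 or with nuclei of at least 500 UMIs.

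Class-selective members numbered 4301 at 4-fold (28.0% beside 21.2% of all D0 peaks) and 13400 with no minimum of cut sites (87.1% beside 71.5%, but 87.8% beside 87.3% of shared peaks between the quartiles of cut sites). The median RNA log2 ratio turned to 0.0555 with TMM factors, beside 0.152 for all genes. It was -0.572 with a minimum of 10 UMIs and -0.609 with none, beside -0.400 and -0.423 for all genes. Within 10 kb it was -0.356, and without a shared peak -0.664. Within Ccr7 DC-like, macrophage-like, NK and ILC1-like, T cell-like, cDC1-like, cDC2-like, pDC-like and preDC-like nuclei it was -0.119, -0.243, -0.242, -0.301, -0.256, -0.156, -0.126 and -0.200. Except where the alternative's own construction shows it, the cause was not tested. The motif alternatives in peaks were not run, for want of a genome here. No paired analysis was possible because each day is 1 library.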

Other observations

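Of 1005 microRNA hairpins with a position in RefSeq, 13 lay in D0-only peaks and 136 in shared peaks. D0-only peaks were 10.8% of all D0 peaks, and 13 beside 136 is not above that share. The 13 hairpins were Mir128-2, Mir16-1, Mir1943, Mir1947, Mir322, Mir503, Mir5129, Mir6244, Mir6349, Mir6964, Mir6987, Mir744 and Mir8103.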
